A study of Mus musculus with 9 samples.

Results

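Amacrine transmitter genes are described here: 8 genes that make, load or take up the transmitters of amacrine cells, or that mark these cells. They were taken as a fixed list, with all probe sets that the annotation of the array platform assigns to a single gene symbol. Of the 8 genes, 7 had such a probe set, 13 probe sets in all, and Slc17a8 (VGLUT3) had none and was not analysed here. A gene with several probe sets is represented by the one with the highest mean over the 9 arrays, called the main probe set. An intensity filter was set at 5.91 log2 signal, the 40th percentile over the mean of each probe set. All 7 main probe sets lay above it, so the 7 genes stand among 12761 genes tested, of 18193 with a single-symbol probe set.

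Amacrine cells are the interneurons of the inner retina that shape the signals passing between bipolar and ganglion cells. Most of them release GABA or glycine, which inhibit their targets. GABA is made from glutamate by the glutamic acid decarboxylases, glycine is gathered by a membrane transporter, and both are loaded into vesicles by the same carrier. Starburst amacrine cells, which serve direction selectivity, release acetylcholine as well as GABA, and another amacrine type carries a vesicular glutamate transporter.

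The Affymetrix 3' expression arrays measured RNA of the neural retina of female mice (strain given as Babl/c) aged 10 weeks, in 3 groups of 3 arrays. One group lived for 14 days under cold white LED light of 7378K, one under warm white LED light of 2954K, each at 1000 lx, and the controls in a relatively dark environment of unstated illuminance. All groups had 12 h on and 12 h off. The RNA on an array was pooled from the retinas of 3 right eyes, which gives n = 3 pools in a group. An array is named here by its group and its replicate. In such whole tissue, fewer cells of a type and less RNA per cell cannot be told apart.

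The amacrine identity genes Pax6 and Tfap2b, transcription factors of these cells, gave 12.14 to 12.63 and 11.69 to 12.17 log2 signal over the 9 arrays. Rpe65, a gene of the pigment epithelium, which was to be removed, gave 9.73 to 11.83, and the lens gene Crybb2 reached 9.99, 12.63 and 14.75 in the third array of the 7378K, 2954K and control groups, against 3.08 to 7.69 in the other 6 arrays. The melanosome gene Pmel gave 11.59 in 2954K array 3, against 4.38 to 9.78 elsewhere. The mean log2 level of 11 muscle markers, of which 4 passed the filter, was 7.48 in control 3 and 4.86 to 5.49 elsewhere. The part of these tissues in the values of the members was not tested. The arrays also differed in the signal along transcripts. For Gapdh and beta-actin the array carries control probe sets near either end of the transcript, and the log2 signal at the 3' end less that at the 5' end (called the 3'/5' gap) grows when less of the 5' end is measured, be it from RNA breakdown or from labelling, which cannot be told apart here. It was 1.80, 1.67 and 1.55 in 7378K arrays 1 to 3, 2.78, 0.21 and 1.05 in 2954K arrays 1 to 3, against 0.33, 0.20 and 0.42 in controls 1 to 3. The 7378K arrays all lay above the controls (difference 1.36, exact two-sided permutation p = 0.1, the smallest that 3 against 3 arrays allow), and the 2954K arrays overlapped them (difference 1.03, exact p = 0.3).

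The question of the first comparisons is how the retina under either LED light differed from that of the controls. None of the 7 amacrine transmitter genes passed the test under 7378K or 2954K light at their main probe sets. The vesicular GABA and glycine carrier Slc32a1 came nearest, at 1.53 times the control signal under 7378K light. The GABA-synthesising enzymes Gad1 and Gad2, the glycine transporter Slc6a9 and the calcium-binding protein gene Calb2 differed from control by at most 0.20 on the log2 scale under either light. The cholinergic genes Chat and Slc18a3 were dim and varied more between pools of 1 group than the other members. In limma, with Benjamini-Hochberg adjustment over the 12761 genes, 0 of 7 members passed at an adjusted p under 0.05 under 7378K light and 0 of 7 under 2954K light. At an unadjusted p under 0.05 there was 1 in each comparison, Slc32a1 both times, against 2883 and 1666 of the 12761 genes tested. Over all genes tested, 3.52% passed under 7378K light and 1.22% under 2954K light, so a list of 7 genes with 0 calls lies near this background.

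**Figure D1:**
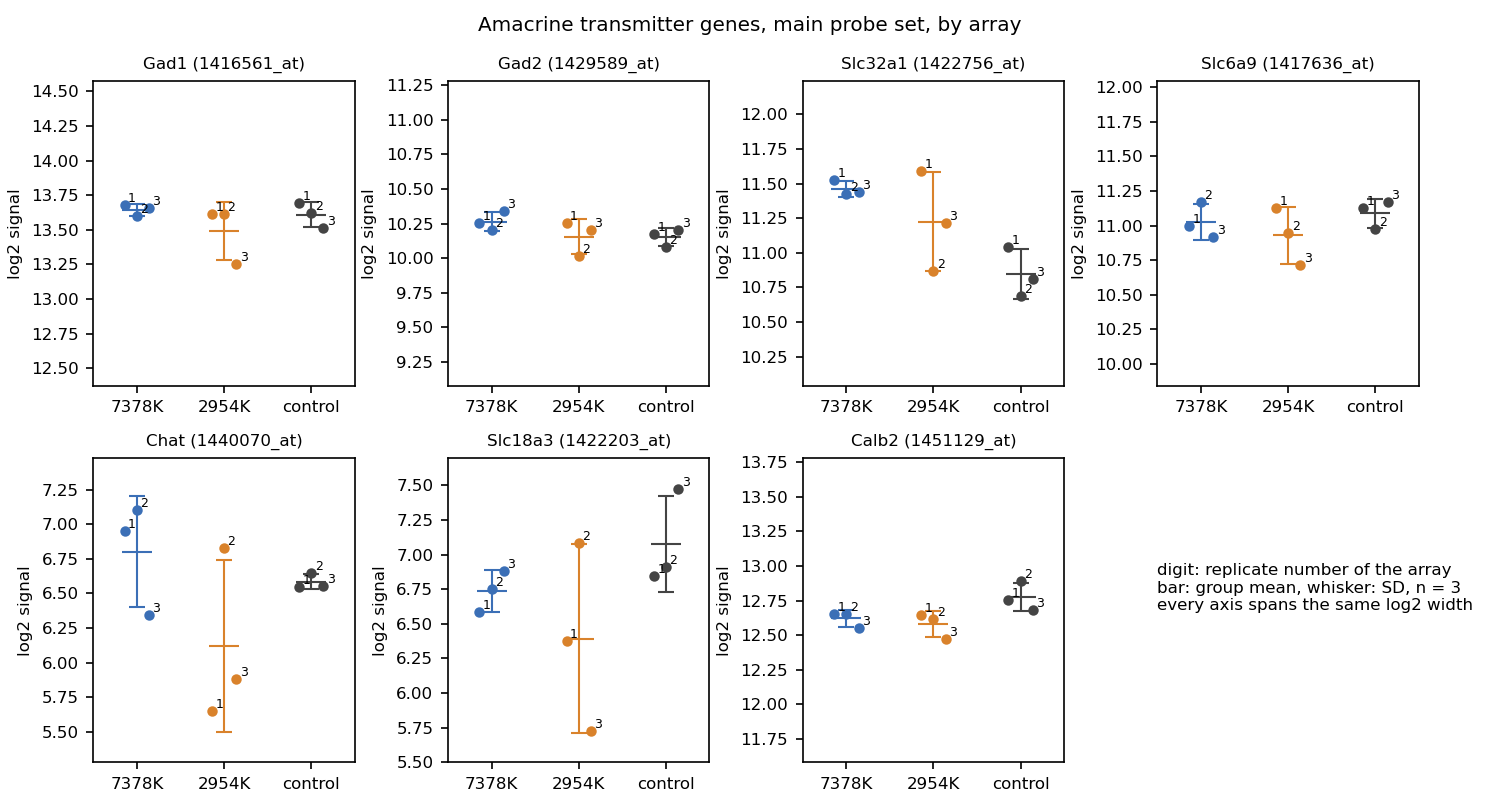
Log2 signal of the main probe set of the 7 measured genes on each array, by group (7378K, 2954K, control), with the digit giving the replicate, the bar the group mean and the whisker the SD (n = 3 pools). Slc32a1 lay between 11.42 and 11.53 in the 7378K arrays, above all 3 controls, and Chat and Slc18a3 had their widest spread in the 2954K group.

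Gad1 (chromosome 2) and Gad2 (chromosome 2) encode the 2 glutamic acid decarboxylases, which make GABA. The main probe set of Gad1 gave 13.68, 13.60 and 13.66 log2 signal in 7378K arrays 1 to 3, 13.61, 13.61 and 13.25 in 2954K arrays 1 to 3, against 13.69, 13.62 and 13.52 in controls 1 to 3. The groups overlapped, and the lowest array was 2954K 3. The difference from control was 0.04 under 7378K light (95% confidence interval -0.20 to 0.27, adjusted p = 0.883) and -0.12 under 2954K light (-0.36 to 0.12, adjusted p = 0.682). Gad2 gave 10.25, 10.20 and 10.34 in 7378K arrays 1 to 3, 10.26, 10.01 and 10.20 in 2954K arrays 1 to 3, against 10.18, 10.08 and 10.20 in controls 1 to 3. All 3 7378K arrays stood above the controls, the nearest pair by less than 0.01, while the 2954K arrays overlapped them. The difference was 0.11 (-0.12 to 0.34, adjusted p = 0.567) under 7378K light and 0.00 (-0.23 to 0.23, adjusted p = 0.991) under 2954K light. For both main probe sets and both lights the 95% confidence intervals ended at or within 0.36 on either side of 0.

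The second probe sets of both enzymes did not follow the main ones. The second probe set of Gad1 (1416562_at) gave 8.18, 8.18 and 7.95 log2 signal in the 7378K arrays, 6.36, 10.65 and 8.56 in the 2954K arrays, against 10.12, 11.02 and 9.47 in the controls. All 7378K arrays lay below the controls, and within the 2954K group array 1 was lowest and array 2 lay among the controls. With every probe set past the filter fitted on its own, 2.51% of 22646 passed under 7378K light and 0.64% under 2954K light. Under 7378K light 20.3% lay wholly below the controls. For this probe set the difference was -2.10 under 7378K light (adjusted p = 0.153) and -1.68 under 2954K light (adjusted p = 0.421). Without 2954K array 2 these became -2.10 (adjusted p = 0.0225) and -2.75 (adjusted p = 0.017). Without 2954K array 1 the adjusted p under 7378K light was 0.0158, and the 2954K difference was -0.60 and did not pass. With any other single array left out, neither difference passed. The adjusted p then ran up to 0.392 under 7378K light, and over all single arrays left out up to 0.791 under 2954K light. The second probe set of Gad2 (1421978_at) gave 6.68, 7.24 and 6.75 in the 7378K arrays, 7.05, 7.89 and 7.84 in the 2954K arrays, against 7.41, 7.53 and 7.79 in the controls, a difference of -0.68 under 7378K light (adjusted p = 0.18) and 0.02 under 2954K light (adjusted p = 0.984). All 7378K arrays lay below the controls, and 2954K array 1 did too, while 2954K arrays 2 and 3 lay above every control.

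The signal of the second Gad1 probe set moved with the 3'/5' gap. The 5 arrays with a gap above 1 (all 7378K arrays and 2954K arrays 1 and 3) read 6.36 to 8.56, and the 4 arrays with a gap below 0.5 (2954K array 2 and the controls) read 9.47 to 11.02. This division, made after the values were seen, also separated the second probe set of Slc6a9, at 7.78 to 8.67 on the 5 arrays and 9.16 to 9.34 on the 4. Slc32a1 was separated in the opposite direction, at 11.21 to 11.59 on the 5 arrays and 10.69 to 11.04 on the 4, and Gad2 at its main probe set by less than 0.01. Of all 22646 probe sets, 11.2% lay lower without overlap on the 5 arrays and 7.83% higher. With the 3'/5' gap as covariate, the second Gad1 probe set differed from control by 0.10 under 7378K light (adjusted p = 0.973) and by -0.01 under 2954K light (adjusted p = 0.998). All 7378K arrays had a larger gap than all controls, so a fit with this covariate cannot fully separate the gap from the light.

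**Figure D2:**
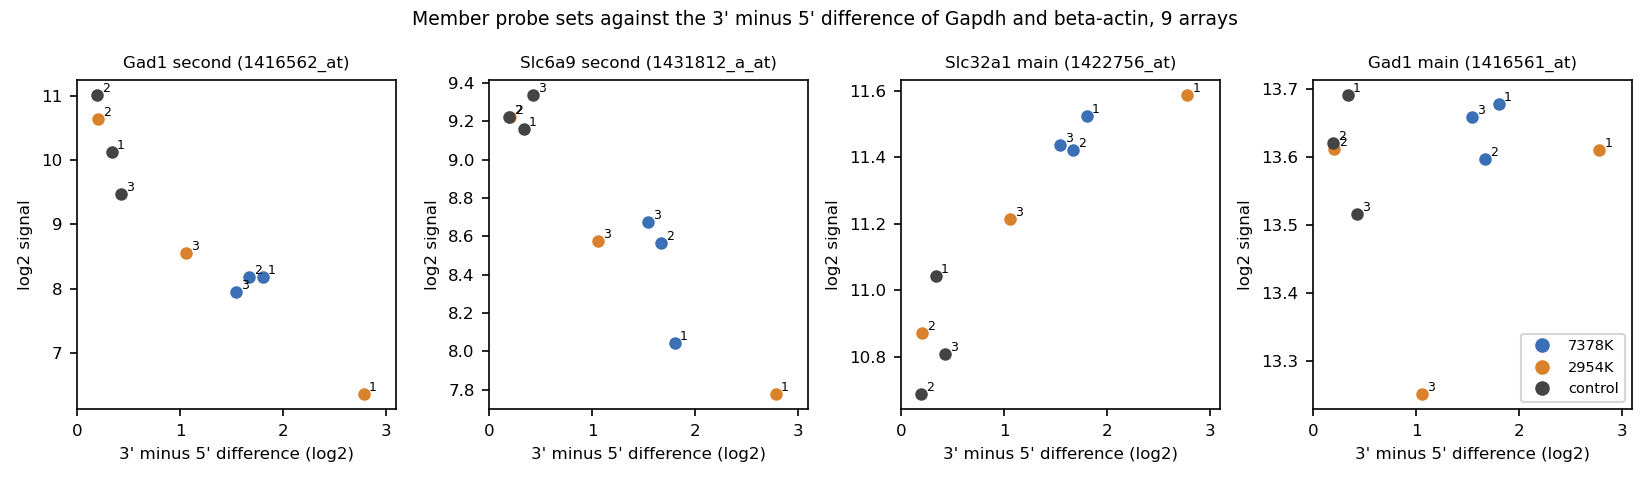
Log2 signal of 4 member probe sets (vertical) against the 3'/5' gap, the 3' end less the 5' end of Gapdh and beta-actin (horizontal, log2) on the 9 arrays, with digits giving the replicate. The second Gad1 and Slc6a9 probe sets were lower and Slc32a1 was higher on the 5 arrays with a gap above 1, and the main Gad1 probe set was not separated.

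Slc32a1 (chromosome 2) encodes the carrier that loads GABA and glycine into synaptic vesicles, also known as VGAT or VIAAT. It gave 11.53, 11.42 and 11.44 log2 signal in 7378K arrays 1 to 3, 11.59, 10.87 and 11.21 in 2954K arrays 1 to 3, against 11.04, 10.69 and 10.81 in controls 1 to 3. The 7378K arrays were close together and all above the controls, whereas the 2954K arrays ran from the highest value of the series (array 1) to a value among the controls (array 2). The means were 11.46 ± 0.06 under 7378K light, 11.22 ± 0.36 under 2954K light and 10.85 ± 0.18 in controls (SD, n = 3). The difference from control was 0.61 ± 0.16 (SE) under 7378K light (95% confidence interval 0.27 to 0.96, limma adjusted p = 0.0538) and 0.38 under 2954K light (0.03 to 0.72, adjusted p = 0.34). The exact two-sided permutation p was 0.1 and 0.2. In the 20 other settings tried, the 7378K difference kept its sign and passed in 7, with an adjusted p of 0.00254 to 0.567. It passed without 2954K array 1 (adjusted p = 0.00816) and without 2954K array 2 (0.0122). Leaving out a 2954K array kept the 7378K difference at 0.61 and changed only the spread that the groups share. With any single 7378K array or control left out, or 2954K array 3, it did not pass (adjusted p up to 0.214). The 2954K difference passed without 2954K array 2 (0.55, adjusted p = 0.033) and was 0.20 without 2954K array 1 (0.661). With any other single array left out the 2954K difference did not pass (adjusted p up to 0.697). The adjusted p of 0.567 under 7378K light came with the 3'/5' gap as covariate. With that covariate the difference was 0.24 under 7378K light and 0.10 under 2954K light (adjusted p = 0.89). Of the other 3 probe sets of Slc32a1, none passed the filter: over the 9 arrays they read 0.84 to 5.54.

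Upstream sequence is shown for the 3 GABA genes because they carry steps of a single pathway, synthesis and vesicle loading. Whether their differences from control were unlike each other was not tested. Each line holds, 5′ to 3′ on the gene's strand, the 250 bases before the transcript start that is listed first for the gene in RefSeq (GRCm38.p6). That start lies 826 bases inside the annotated gene span for Gad1, 1312 for Gad2 and 3498 for Slc32a1, so these windows are not the sequence before the outermost start. The windows are chr2:70561879-70562128 for Gad1, chr2:22622077-22622326 for Gad2 and chr2:158610508-158610757 for Slc32a1, all on the plus strand. Capitals mark matches, on either strand, to any of 4 motifs: GCCNNNGGC, bound by the AP-2 factors to which Tfap2b belongs, the E-box CAGCTG, the homeodomain core TAATTA, and TATAAA.
Gad1: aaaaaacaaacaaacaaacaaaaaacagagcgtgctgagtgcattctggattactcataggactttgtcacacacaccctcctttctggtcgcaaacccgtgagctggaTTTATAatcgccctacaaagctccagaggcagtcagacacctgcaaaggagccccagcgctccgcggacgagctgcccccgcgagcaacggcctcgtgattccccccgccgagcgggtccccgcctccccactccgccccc
Gad2: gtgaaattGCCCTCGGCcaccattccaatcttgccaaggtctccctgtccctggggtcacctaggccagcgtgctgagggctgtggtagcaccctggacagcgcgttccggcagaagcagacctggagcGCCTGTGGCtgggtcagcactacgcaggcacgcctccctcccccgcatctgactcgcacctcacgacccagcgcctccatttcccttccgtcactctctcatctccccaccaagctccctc
Slc32a1: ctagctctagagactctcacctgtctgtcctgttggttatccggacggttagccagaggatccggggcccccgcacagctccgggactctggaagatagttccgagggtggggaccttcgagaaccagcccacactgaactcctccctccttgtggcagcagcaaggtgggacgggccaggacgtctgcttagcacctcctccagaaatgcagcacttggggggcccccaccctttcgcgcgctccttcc
Gad1 held 1 TATAAA match, Gad2 held 2 AP-2 matches and Slc32a1 held 0 matches to any of the 4. Among 32851 RefSeq windows of this length, 13.7% held the AP-2 motif, 13% the E-box, 4.84% TAATTA and 12.4% TATAAA. A match describes letters only, and no array value here bears on binding.

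Slc6a9 (chromosome 4) encodes GlyT1, the transporter by which glycinergic amacrine cells gather glycine. Its main probe set gave 10.99, 11.17 and 10.92 log2 signal in the 7378K arrays, 11.13, 10.94 and 10.71 in the 2954K arrays, against 11.12, 10.97 and 11.17 in the controls. The groups overlapped. Differences were -0.06 under 7378K light (-0.33 to 0.20, adjusted p = 0.805) and -0.16 under 2954K light (-0.43 to 0.11, adjusted p = 0.601). The second probe set (1431812_a_at) gave 8.04, 8.56 and 8.67 in the 7378K arrays, 7.78, 9.23 and 8.57 in the 2954K arrays, against 9.16, 9.22 and 9.34 in the controls. Here the 7378K arrays lay below the controls, and 2954K array 2 stood apart from its group at the level of the controls. The difference was -0.81 under 7378K light (adjusted p = 0.148) and -0.71 under 2954K light (adjusted p = 0.397), and -0.06 and -0.14 with the 3'/5' gap as covariate. It passed under 7378K light without 2954K array 1 (adjusted p = 0.0258) and without 2954K array 2 (0.0434). Without 2954K array 2 it also passed under 2954K light (-1.06, adjusted p = 0.0295). It passed with no other single array left out. The adjusted p then ran up to 0.385 under 7378K light and 0.718 under 2954K light.

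**Figure D3:**
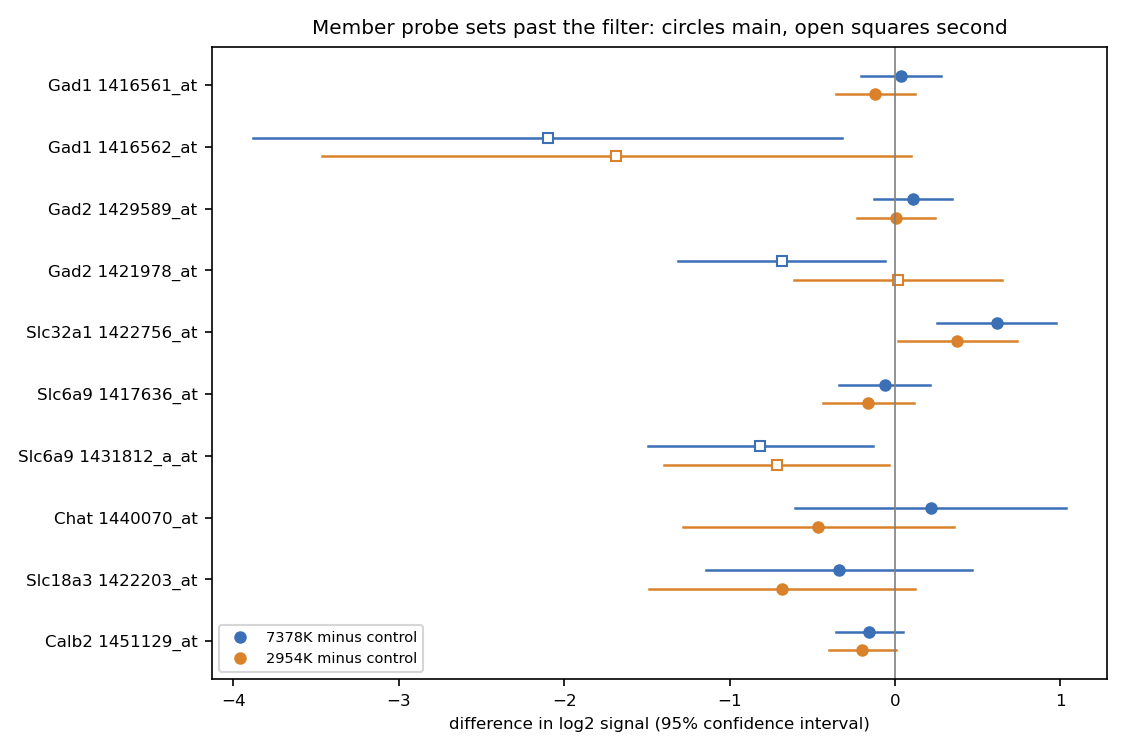
Difference in log2 signal from control, with 95% confidence intervals, for the 10 member probe sets past the filter under 7378K and 2954K light, from the fit of every probe set. Circles are main probe sets and open squares second ones. The second probe sets of Gad1 and Slc6a9 lie to the left of the main ones under both lights, that of Gad2 under 7378K light.

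Chat and Slc18a3 serve the starburst cells: Chat encodes choline acetyltransferase, which makes acetylcholine, and Slc18a3 the carrier VAChT, which loads it into vesicles. They share a locus on chromosome 14, where Slc18a3 lies inside the span of Chat on the same strand, so both are shown with their upstream sequence. The windows, on the minus strand and marked as above, are chr14:32465910-32466159 for Chat and chr14:32464851-32465100 for Slc18a3, and both end at the start of the gene's span.
Chat: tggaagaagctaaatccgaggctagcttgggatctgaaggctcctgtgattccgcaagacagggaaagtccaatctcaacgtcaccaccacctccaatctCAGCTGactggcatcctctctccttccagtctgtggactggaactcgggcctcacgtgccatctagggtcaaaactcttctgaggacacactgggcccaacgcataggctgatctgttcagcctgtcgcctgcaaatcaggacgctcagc
Slc18a3: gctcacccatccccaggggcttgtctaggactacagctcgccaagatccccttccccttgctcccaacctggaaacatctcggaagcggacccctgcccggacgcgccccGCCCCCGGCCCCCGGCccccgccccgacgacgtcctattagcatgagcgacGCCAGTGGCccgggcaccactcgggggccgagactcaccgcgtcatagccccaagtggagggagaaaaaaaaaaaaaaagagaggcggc
Chat held 1 E-box CAGCTG match and Slc18a3 held 3 AP-2 matches, of which 2 overlap each other.

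Chat gave 6.95, 7.11 and 6.35 log2 signal in the 7378K arrays, 5.65, 6.83 and 5.88 in the 2954K arrays, against 6.55, 6.65 and 6.56 in the controls. The controls were close together, and 2954K arrays 1 and 3 fell below the filter value of 5.91. The difference was 0.22 under 7378K light (95% confidence interval -0.59 to 1.03, adjusted p = 0.773) and -0.46 under 2954K light (-1.27 to 0.35, adjusted p = 0.624). Slc18a3 gave 6.58, 6.75 and 6.88 in the 7378K arrays, 6.37, 7.08 and 5.72 in the 2954K arrays, against 6.85, 6.91 and 7.47 in the controls. Its lowest array, 2954K 3, was also below the filter value, and the groups overlapped. The difference was -0.34 (-1.13 to 0.45, adjusted p = 0.619) under 7378K light and -0.68 (-1.47 to 0.10, adjusted p = 0.443) under 2954K light. The intervals of this pair span more than 1 on the log2 scale, so a change of the size seen for Slc32a1 was not detectable. The SD within groups was 0.43 for Chat and 0.45 for Slc18a3, against 0.09 to 0.23 for the other 5 members and a median of 0.20 over all genes tested.

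Calb2 (chromosome 8) encodes calretinin, a calcium-binding protein that marks amacrine cells, AII cells among them, and also ganglion cells. It gave 12.65, 12.66 and 12.55 log2 signal in the 7378K arrays, 12.65, 12.62 and 12.47 in the 2954K arrays, against 12.76, 12.89 and 12.68 in the controls. All 6 LED arrays lay below the 3 controls, by little. The difference was -0.15 under 7378K light (-0.36 to 0.05, adjusted p = 0.347) and -0.20 under 2954K light (-0.40 to 0.01, adjusted p = 0.396). With Calb2, Gad2 and Slc32a1, 3 of 7 members did not overlap the controls under 7378K light, where 36.4% of all genes tested did not. Under 2954K light Calb2 was the only 1 of 7, against a background of 15.2%.

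The next comparison set cold 7378K light against warm 2954K light. In limma 0 of 7 members passed at their main probe sets, also 0 at an unadjusted p under 0.05, and 0 of 12761 genes passed (0%, with 519 at an unadjusted p under 0.05). All 7 main probe sets were higher under 7378K light in their means, by 0.04 for Calb2 to 0.68 for Chat (median 0.15, against 0.03 over all genes tested, of which 7191 were higher), and every adjusted p was 0.978. The second probe sets went the other way, at -0.42 for Gad1, -0.70 for Gad2 and -0.10 for Slc6a9. In limma that of Gad2 had an unadjusted p of 0.0315 (adjusted p = 0.937). The 2 groups overlapped for each of the 7 members, where 8.56% of all genes did not overlap. For Slc32a1 the difference was 0.24 (95% confidence interval -0.11 to 0.58), for Chat 0.68 (-0.13 to 1.49) and for Slc18a3 0.35 (-0.44 to 1.14). Gad1 differed by 0.15 (-0.09 to 0.39), Gad2 by 0.11 (-0.12 to 0.34) and Slc6a9 by 0.10 (-0.17 to 0.36). Both LED groups were compared with the same controls, so the differences from control given above are not independent of each other.

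Among themselves, the members fell into no single pattern over the 9 arrays. Pearson's r, given as a description over 9 arrays that share groups and labelling, was 0.75 between Gad2 and Slc32a1, the highest among the 7 genes, and 0.59 between Slc6a9 and Slc18a3. Slc32a1 against Calb2 gave -0.52 and Gad1 against Gad2 gave 0.04. Among the 12761 genes tested, those most like Slc32a1 were Neo1 (r = 0.99), Phactr1 (0.99) and Rnf115 (0.99). For Gad1 they were Wapl (0.98), Ptpn5 (0.97) and Taf15 (0.97), and for Gad2 Chmp7 (0.96), S100pbp (0.95) and Rap2a (0.94). For Slc6a9 they were Slc25a42 (0.96), Peg3 (0.94) and 4930445K14Rik (0.92), for Chat Zfp11 (0.97), Arhgap9 (0.92) and Stn1 (0.91), for Slc18a3 Zfp358 (0.96), Ddx25 (0.96) and Dbn1 (0.96), and for Calb2 Thoc5 (0.95), 9430065F17Rik (0.93) and Col19a1 (0.91). These are the top of 12761 correlations over 9 arrays, and no test is attached to them.

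Genes that work beside the members were taken from lists. Over all 12761 genes tested, 2883 had an unadjusted limma p under 0.05 under 7378K light and 1666 under 2954K light. Of 19 tested genes for the handling of GABA, glycine and their precursors, 3 rose and 0 fell under 7378K light (median 0.08, against 0.04 over all genes, of which 2.36% rose and 1.16% fell). Slc1a1, a glutamate transporter of neurons, gave 10.79, 10.75 and 11.22 in the 7378K arrays, against 9.79, 9.77 and 10.21 in the controls, 2.00 times as much (adjusted p = 0.0048). Slc6a11, the GABA transporter GAT3, gave 10.74, 10.81 and 10.76 in the 7378K arrays, against 10.05, 10.15 and 10.29 in the controls, a rise of 1.52-fold (adjusted p = 0.0122). Gldc, the decarboxylase of the glycine cleavage system, rose 1.63-fold, to 9.76 ± 0.16 under 7378K light against 9.06 ± 0.20 in controls (adjusted p = 0.0288). None of these 3 passed with the 3'/5' gap as covariate (adjusted p = 0.0757, 0.153 and 0.129). When the probe sets of a gene were averaged, the differences of Slc1a1 and Slc6a11 turned to -0.23 and -0.37. The calls of Slc6a11 and Gldc ended without any of the 3 7378K arrays, or control 1 or 2, with adjusted p up to 0.0661 and 0.146.

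Under 2954K light 0 of the 19 passed in limma, with 5 at an unadjusted p under 0.05 (median 0.05, against 0.01 over all genes). Slc1a1 was 0.63 and Gldc 0.57 above control (adjusted p = 0.1 and 0.124), with no overlap for either. Slc1a1 passed without 2954K array 2 (0.72, adjusted p = 0.03) and without control 3 (0.78, adjusted p = 0.0355), and was 0.25 above control with probe sets averaged (adjusted p = 0.75). With any other single array left out it did not pass (adjusted p up to 0.385).

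Among receptors for the members' transmitters, 0 of 12 GABA receptor genes and 0 of 4 glycine receptor genes passed in limma under either LED light. At an unadjusted p under 0.05 there were 3 and 1 under 7378K light and 0 and 0 under 2954K light. Under 7378K light Gabrr2, a rho subunit of GABA receptors, was 0.36 above control (adjusted p = 0.107) and Gabrb1, a beta subunit, 0.55 (adjusted p = 0.15). Gabrr2 passed without 2954K array 2 (adjusted p = 0.0482) and with no other single array left out (adjusted p up to 0.289). Glra1, an alpha subunit of glycine receptors, was 0.45 above (adjusted p = 0.183), and Glrb, the beta subunit, was -0.23 from control (adjusted p = 0.474). Under 2954K light Gabbr1, a subunit of the metabotropic GABA receptor, differed by 0.17, Gabrb1 by 0.33, Glra1 by 0.26 and Glrb by -0.20 (adjusted p = 0.479, 0.528, 0.568 and 0.664).

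Of 11 acetylcholine receptor genes 0 rose and 1 fell under 7378K light (median -0.19), and 0 passed in limma under 2954K light (median -0.14, 1 at an unadjusted p under 0.05). Chrna4, an alpha subunit of neuronal nicotinic receptors, gave 6.74, 6.70 and 6.28 in the 7378K arrays, 6.22, 7.37 and 6.67 in the 2954K arrays, against 7.53, 7.96 and 8.09 in the controls. All LED arrays lay below the controls. It fell by 1.29 on the log2 scale under 7378K light (adjusted p = 0.0493), a call kept in 6 of 20 other settings and lost without any 7378K array, any control or 2954K array 3 (adjusted p up to 0.183). With its probe sets averaged the 7378K difference was -0.16 (adjusted p = 0.878), and with the 3'/5' gap as covariate -0.76 (0.526). Under 2954K light the difference was -1.11 (adjusted p = 0.153), and without 2954K array 2 it was -1.42 (adjusted p = 0.0245), against -0.068 with probe sets averaged and -0.71 with the covariate. Chrnb4, a beta subunit named here after its value was seen, gave 7.37, 7.57 and 7.61 in the 7378K arrays, 6.98, 6.46 and 6.93 in the 2954K arrays, against 5.48, 5.65 and 7.18 in the controls. Its difference was 1.41 under 7378K light (adjusted p = 0.0793), with all 7378K arrays above the controls, and 0.69 under 2954K light (adjusted p = 0.495). Chrnb3, another beta subunit, differed from control by -1.12 under 2954K light with wide spread (SD 1.23 under 2954K light and 0.40 in controls, adjusted p = 0.403).

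Of 7 genes for the handling of acetylcholine 0 passed in limma under either light, with 4 at an unadjusted p under 0.05 under 7378K light and 2 under 2954K light (medians 0.30 and 0.20). Slc44a2, a choline transporter-like protein, was 0.50 above control under 7378K light (adjusted p = 0.0883) and 0.34 under 2954K light (adjusted p = 0.365). Lynx1, a modulator of nicotinic receptors, was 0.32 above control under 7378K light (adjusted p = 0.132), and Acly, which makes acetyl-CoA, 0.32 under 2954K light (adjusted p = 0.262). Under 7378K light Slc44a2 passed without 2954K array 1 or 2 (adjusted p = 0.00969 and 0.0469) and Lynx1 without 2954K array 1 (0.0206), and Acly passed under 2954K light without 2954K array 2 (0.0262). In these comparisons none of them passed with any other single array left out (adjusted p up to 0.261, 0.297 and 0.572). Slc5a7, the choline transporter of cholinergic neurons, lay below the filter on every array, at 2.28 to 5.20 in the 7378K arrays, 1.72 to 4.58 in the 2954K arrays and 0.13 to 1.94 in the controls. Signals this dim give no fold change.

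Among 4 other vesicular transporter genes 0 passed in limma (2 and 0 at an unadjusted p under 0.05). Slc18a2, the monoamine carrier, was -0.74 from control under 7378K light (adjusted p = 0.177), and Slc17a6, a vesicular glutamate transporter of ganglion cells, was 0.36 above under 7378K light and 0.27 above under 2954K light (adjusted p = 0.197 and 0.48). Slc17a7, the glutamate transporter of photoreceptors and bipolar cells, differed by 0.10 under 2954K light (adjusted p = 0.919), and by -0.38 without 2954K array 1. Of 11 amacrine neuropeptide genes 0 passed in limma (2 and 1 at an unadjusted p under 0.05). Crh, corticotropin-releasing hormone, was -1.23 from control under 7378K light (adjusted p = 0.106, and 0.0361 without control 3), and Cck, cholecystokinin, -0.38 under 2954K light (adjusted p = 0.349). Adcyap1, the peptide PACAP, was 1.44 and 1.36 above control under 7378K and 2954K light (adjusted p = 0.205 and 0.387), where the control SD was 1.70.

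**Figure D4:**
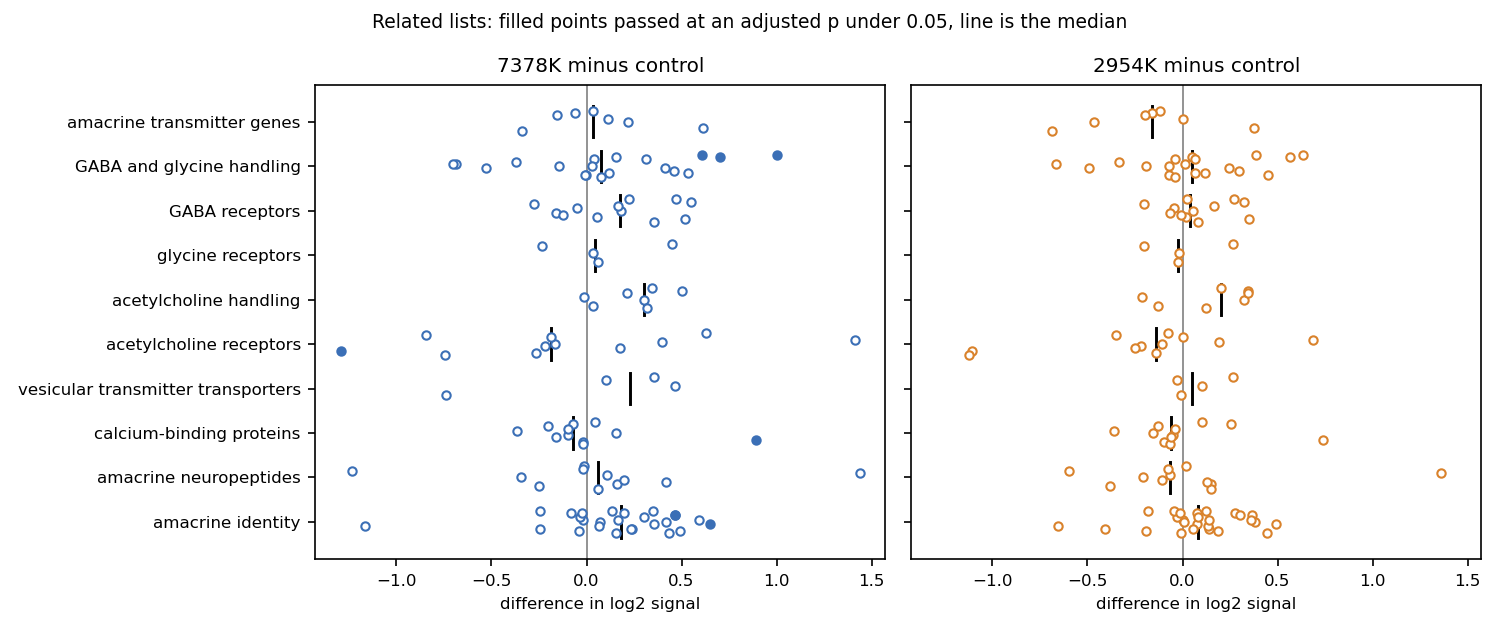
Difference in log2 signal from control for every tested gene of 10 lists under 7378K (left) and 2954K light (right), each point a gene, filled where the limma adjusted p was under 0.05, with a line at the list's median. Under 7378K light 3 GABA and glycine handling genes, 2 amacrine identity genes, 1 calcium-binding protein gene and, in the falling direction, 1 acetylcholine receptor gene are filled, and under 2954K light 0 are.

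Of 26 tested genes of amacrine identity 2 rose and 0 fell under 7378K light (median 0.18), and 0 passed in limma under 2954K light (median 0.08, 5 at an unadjusted p under 0.05). Sox2, a transcription factor of Müller glia and starburst cells, gave 11.24, 11.01 and 11.31 in the 7378K arrays, 10.95, 11.21 and 10.94 in the 2954K arrays, against 10.59, 10.51 and 10.53 in the controls. It rose 1.57-fold under 7378K light (adjusted p = 0.00821) and was 0.49 above control under 2954K light (adjusted p = 0.066, and 0.0473 without 2954K array 2). Its 7378K call ended without 7378K array 1 or 3 (adjusted p = 0.0592 and 0.0565), and without the third array of all groups (0.139). Isl1, a transcription factor of starburst, ganglion and bipolar cells, gave 12.68, 12.67 and 12.72 in the 7378K arrays, against 12.23, 12.27 and 12.16 in the controls. It rose 1.38-fold under 7378K light (adjusted p = 0.018), and was 0.37 above control under 2954K light (adjusted p = 0.1, and 0.0171 without 2954K array 2). Its 7378K call ended without any of the 7378K arrays or any of the controls (adjusted p up to 0.0922), and with the 3'/5' gap as covariate (0.146). With its probe sets averaged the difference was -0.11. Of the 26 genes, 8 lay below control in their means under 7378K light. The largest difference of the list was that of Prox1, at -1.17 and not called. Prox1 gave 7.78, 7.73 and 7.90 in the 7378K arrays, 6.77, 9.38 and 8.79 in the 2954K arrays, against 8.89, 9.31 and 8.70 in the controls. Pax6 gave 12.28 to 12.38 in the 7378K arrays and 12.55 to 12.63 in the controls. Tfap2b gave 11.93 to 12.17 and 11.74 to 11.92.

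Of 11 calcium-binding protein genes 1 rose and 0 fell under 7378K light and 0 passed in limma under 2954K light (1 at an unadjusted p under 0.05). The riser, named after its value was seen, was S100a10, which gave 10.88, 10.75 and 10.64 in the 7378K arrays, against 9.96, 9.48 and 10.15 in the controls (1.85-fold, adjusted p = 0.0328). With the covariate the difference was 0.55 (adjusted p = 0.411) and with probe sets averaged 0.40 (0.218). Its call ended without any of the 7378K arrays, control 1 or control 2.

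Between the LED groups the lists held 0 genes past the test in limma. The nearest in the GABA and glycine handling list were Shmt2, a serine-glycine interconverting enzyme of mitochondria, at 0.41 higher under 7378K light, and Slc1a1, at 0.37. Gabrr2 was 0.28 and Gabrb2 0.13 higher, Glra1 0.18 and Glra3 0.08, Lynx1 0.20 and Slc44a1 0.16. The nicotinic subunit genes Chrnb4 and Chrna2 were 0.73 and 0.71 higher and Slc17a7 0.36, whereas Slc18a2 differed by -0.73 and Crh by -0.64. Sst, somatostatin, was 0.18 and Ppp1r17, an amacrine marker, 0.22 higher, and Gjd2, the gap junction protein of AII cells, differed by -0.16. Every adjusted p was 0.978. Without 2954K array 1 Slc17a7 passed (0.85, adjusted p = 0.0466).

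Other retinal cells share some members. In the mouse, horizontal cells also express Gad1 and Slc32a1, and ganglion cells Calb2. Of 5 tested horizontal cell markers and 10 ganglion cell markers, 0 passed in limma in any of the 3 comparisons (at an unadjusted p under 0.05, 2 horizontal and 2 ganglion cell markers under 7378K light, 1 horizontal cell marker under 2954K light and 0 between the LED groups). The mean log2 level of the 7 horizontal cell markers with a probe set was 8.53 to 8.83 in the 7378K arrays, 8.29 to 8.78 in the 2954K arrays and 8.50 to 8.58 in the controls. That of the 11 ganglion cell markers was 9.82 to 10.09, 9.67 to 10.04 and 9.73 to 10.23 in the same groups. Both means include markers below the filter, whose dim signals varied widely between arrays. Lhx1, a defining horizontal cell gene, gave 7.23 to 7.54, 7.07 to 7.68 and 7.58 to 7.73, and Rbpms, a defining ganglion cell gene, 9.42 to 9.75, 9.26 to 9.73 and 9.31 to 9.83. Of 10 microglia markers 9 rose under 7378K light and 8 under 2954K light, where 301 and 132 of all 12761 genes tested rose. Of 10 Müller glia markers 1 rose under each light, Aqp4. The part of these cells in the values of the members was not tested.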

How the data were processed

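The deposited table held 45101 probe sets on 9 arrays. MAS5 and affy, with no version or order, are named per the submitters' processing notes. The authors deposited MAS5-type signals on a log2 scale, and the values show scaling of each array to a common trimmed mean of 500 (2% trimmed at either end of 2 raised to the value). No detection calls were used. The number of arrays limits the precision. Of 34945 probe sets with a single symbol, 34741 were matched to RefSeq (GRCm38.p6) with 0 symbols changed. Genes under the 40th percentile (5.91) were left out. A limma 3.58.1 model in R 4.3.3 with 1 mean per group, 6 residual degrees of freedom and an intensity trend was fitted to 12761 genes, with Benjamini-Hochberg adjustment within each of 3 contrasts. The labels call the arrays of a group biological replicates, and p-values measure the spread between these pools. Members and lists were chosen with earlier results of these data known. Named genes are all members, the list genes called in a contrast (otherwise the 2 with the smallest p in each of 8 related lists), the 3 genes most correlated with each member, and the markers Rpe65, Crybb2, Lhx1 and Rbpms. Pax6, Tfap2b, Pmel, Prox1, Slc5a7, Aqp4, S100a10 and, against control, Chrnb4 were named outside this rule, with their values known. Alternatives covered scaling, the filter, probe sets, the variance model, array weights, a replicate block, the 3'/5' gap as covariate and single arrays left out. Figures were drawn with matplotlib 3.10.9.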

Additional observations from a re-analysis of the deposited data

How the results depend on the processing

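Under 7378K light 449 genes passed. The count was 255 with probe sets averaged per gene, 207 without the intensity trend, 2174 with only the 2 groups fitted, 136 with the 3'/5' covariate, 2688 with array weights and 146 without the third array of all groups (an alternative added after seeing the data). With single arrays left out it ran from 144 (without 7378K array 1) to 1517 (without 2954K array 1). Under 2954K light, where 156 passed, the same settings gave 82, 101, 68, 102, 384 and 90, and single arrays 79 (without control 2) to 897 (without 2954K array 2). Between the LED groups, single arrays gave 0 to 29, the highest without 2954K array 1. The count of amacrine transmitter genes that passed under 7378K light was 1 (Slc32a1) with quantile normalization, the 60th percentile filter, only 2 groups, the replicate block and array weights, and 0 to 1 with single arrays left out. Under 2954K light it was 0 to 1 with single arrays. The main fit did not pair arrays by replicate number. Same-numbered arrays of different groups correlated at 0.0607 to 0.332 in their deviations from group means. In 8 of 9 same-numbered pairs this r exceeded the highest among the other-numbered pairs it was set against. For the third arrays it was 0.211, 0.332 and 0.154, against -0.102, -0.066 and -0.0428. With the replicate block the adjusted p of Slc32a1 under 7378K light was 0.0174, and that of Slc1a1 under 2954K light was 0.0166.

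Signs turned as follows, and the cause was not tested. With probe sets averaged per gene, the 7378K difference from control was -1.03 for Gad1, -0.29 for Gad2, -0.16 for Gabrb1, -0.19 for Glra1, 0.001888 for Glrb, -0.11 for Isl1, -0.43 for Slc17a6, -0.23 for Slc1a1 and -0.37 for Slc6a11. In that setting the 2954K difference was -0.25 for Acly, -0.25 for Gabrb1, -0.13 for Glra1, 0.014 for Glrb, -0.00546 for Isl1 and -0.065 for Slc17a6. The 7378K minus 2954K difference was -0.32 for Gabrb2, -0.13 for Gad1, -0.30 for Gad2, -0.061 for Glra1, -0.15 for Shmt2, -0.48 for Slc1a1, -0.017 for Slc44a1 and -0.00065 for Slc6a9. With the 3'/5' covariate, the 7378K difference was -0.00214 for Gad1, -0.00308 for Gad2 and 0.10 for the second Gad1 probe set, and the 2954K difference was -0.084 for Gad2 and -0.55 for Slc17a7. Between the LED groups the second probe sets then differed by 0.11 for Gad1 and 0.082 for Slc6a9. Gad1 under 7378K light was -0.075 with quantile normalization, Slc6a9 0.018 with median centring, and Slc17a7 under 2954K light -0.086 with array weights. Without the third arrays, Gad1 was -0.019 and Slc6a9 0.033 under 7378K light, and Glra3 -0.047 and Slc18a3 -0.062 between the LED groups. With single arrays left out, 7378K differences ran from -0.012 to 0.076 for Gad1. The 2954K differences ran from -0.046 to 0.076 for Gad2, -0.18 to 0.0019 for Gad1, -0.38 to 0.40 for Slc17a7 and -0.13 to 0.29 for the second Gad2 probe set. Between the LED groups they ran from -0.012 to 0.076 for Calb2, -0.044 to 0.20 for Glra3, -0.0097 to 0.20 for Slc6a9, -0.47 to 0.25 for the second Slc6a9 probe set and -1.50 to 0.65 for the second Gad1 probe set.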

Other observations

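The 3 dim probe sets of Slc32a1 were not alike on every array: 1456457_at read 5.54 and 1447573_at 4.39 in 2954K array 1, against 2.04 to 3.37 and 0.84 to 2.38 on the other 8 arrays, while 1447574_s_at read 2.17 there and 1.72 to 3.76 elsewhere. That array had the largest 3'/5' gap of the series (2.78) and also the highest signal of the main Slc32a1 probe set.

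Of 16 tested genes of transmitter release 0 passed in limma under 7378K light (3 at an unadjusted p under 0.05, median 0.10) and 0 under 2954K light (2, median -0.01). Between the LED groups 0 passed and 15 of the 16 were higher under 7378K light (median 0.13, against 0.03 over all genes tested). Over all genes tested, 7191 of 12761 were higher. The 16 genes were read on the same arrays, so their directions are not independent of each other.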
